A study of Mus musculus with 15 samples.

Results

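The matrix metalloproteinases (MMPs), the tissue inhibitors of metalloproteinases (TIMPs), the ADAMTS proteases and the ADAMTS-like proteins were followed through mouse adipose tissue with and without interleukin 33. Members were the genes of the count table whose Ensembl identifier maps to a protein-coding mouse symbol made of Mmp, Timp, Adamts or Adamtsl and a number. The rule gave 50 of the 37991 identifiers in the table, namely 22 MMP, 4 TIMP, 19 ADAMTS and 5 ADAMTSL genes. Mmp1a, which the GENCODE annotation types as a polymorphic pseudogene, was left out and had 0 counts in every library. Polyadenylated RNA had been sequenced from 15 libraries of C57BL/6 mice in 4 groups. Brown adipose tissue, the heat-producing depot, was taken at postnatal day 0.5 from mice labelled IL-33-/- (4 libraries) and from wild-type mice (4 libraries). Inguinal white adipose tissue, a subcutaneous depot, was taken at day 24 from IL-33-/- mice (3 libraries, numbered 2 to 4) and from wild-type mice (4 libraries). Tissue and age changed together between the depots and cannot be told apart. The labels give no allele, no deleted exon and no Cre for the knockout. They leave unsaid whether each library is a different animal, so the spread behind every p-value is that of the libraries and may be technical.

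Total counts were 33782634 to 40802095 in brown knockout libraries, 31661512 to 41926108 in brown wild-type libraries, 30835337 to 38765633 in inguinal knockout libraries and 26059635 to 53923009 in inguinal wild-type libraries. Il33, in CPM (counts scaled by the total count of the library), stood at 0.324, 0.434 and 0.0774 in the inguinal knockout libraries, against 3.44, 4.55, 3.84 and 3.67 in the inguinal wild-type ones (log2 change -3.73, SE 0.36, edgeR adjusted p = 1.25e-05). In brown tissue it stood at 0.438, 1.66, 1.45 and 0.588 in the labelled knockout libraries, against 1.89, 3.38, 2.02 and 1.77 in the wild-type ones, and the difference did not pass (log2 change -1.08, SE 0.44, edgeR adjusted p = 0.229). The brown groups did not overlap in Il33, but the knockout libraries kept counts, and the group is therefore called the labelled knockout throughout. On the first principal component of the brown libraries (48.2% of the variance), labelled knockout libraries 2 to 4 lay at 38.6, 19.5 and 39.2. Library 1 lay at -30.2, lower than every wild-type library (-19.0 to -15.9). Its value on the second component (21.5% of the variance) was -32.8. Wild-type libraries lay there at -7.49 to 27.5, and labelled knockout libraries 2 to 4 at -6.51 to 0.108. Library 1 thus stood apart from both groups, and each brown result is given with and without it where that matters. The adipocyte markers, among them Adipoq, Plin1 and Fabp4, were detected in every group, with summed levels of 10148 to 11025 CPM in brown labelled knockout, 11140 to 13019 in brown wild-type, 22307 to 26543 in inguinal knockout and 23327 to 25263 in inguinal wild-type libraries. Brown tissue at this age also held a large amount of skeletal muscle RNA (2546 to 4499 CPM over 10 markers in labelled knockout and 2614 to 4498 in wild-type libraries).

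MMPs are zinc proteases that cut collagens, gelatins, proteoglycans and many non-matrix proteins. Most are secreted as inactive zymogens, and some are held at the cell surface by a transmembrane segment or a lipid anchor. TIMPs bind the active site of the mature enzymes and block it. Among them, TIMP3 is the one that binds to the matrix itself, and it also inhibits ADAM sheddases and the aggrecan-cleaving ADAMTS enzymes. ADAMTS proteases are secreted enzymes with thrombospondin repeats: one branch cuts aggrecan and versican, another trims the amino-terminal propeptide of fibrillar procollagens, and others act around fibrillin microfibrils. ADAMTS-like proteins share the thrombospondin repeats and lack the catalytic domain. In fat, matrix remodelling accompanies the enlargement of adipocytes, and mice without the membrane-type enzyme Mmp14 fail to expand white fat normally.

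Of the 50 members, 46 had at least 1 count. Mmp1b, Mmp7, Mmp10 and Mmp20 had 0 counts in all 15 libraries, which allows a level of up to 0.00551 CPM (3 counts of all reads summed; counting error only). Levels between genes are compared only as CPM per kilobase of exon, with lengths from a newer annotation than the one counted. On that scale, given as mean ± SD over libraries, the gelatinase Mmp2 and the inhibitors Timp2 and Timp3 held the first 3 places in each group except inguinal knockout tissue, where Timp3 was the fifth. In brown labelled knockout tissue the level of Timp3 was 26.1 ± 3.13, that of Mmp2 19.7 ± 3.68 and that of Timp2 16.7 ± 1.22 CPM per kilobase (n = 4), against 15.6 ± 2.07, 17.9 ± 1.66 and 15.0 ± 2.28 in brown wild-type tissue (n = 4). In inguinal knockout tissue Mmp2 led at 34.6 ± 4.28, followed by Timp2 at 30.5 ± 2.73 and Mmp28 at 16.4 ± 2.39 CPM per kilobase (n = 3). In inguinal wild-type tissue (n = 4) Timp2 led at 40.9 ± 7.23, followed by Mmp2 at 35.5 ± 5.78 and Timp3 at 23.7 ± 1.84 CPM per kilobase, while Mmp28 stood at 8.35 ± 1.11. Library values overlapped between Mmp2, Timp3 and Timp2 in brown wild-type tissue, and between Mmp2 and Timp2 in both inguinal groups. Timp4 also reached into the range of Timp2 and Timp3 in brown wild-type tissue. Mmp2 overlapped with Timp3 in brown labelled knockout tissue, where Mmp2 and Timp2 also overlapped with each other, Adamts1 and Mmp14. Mmp28 overlapped with Mmp19 and Timp3 in inguinal knockout tissue, so these ranks are not firm. In inguinal knockout tissue Timp2 lay clear above Mmp28.

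**Figure D1:**
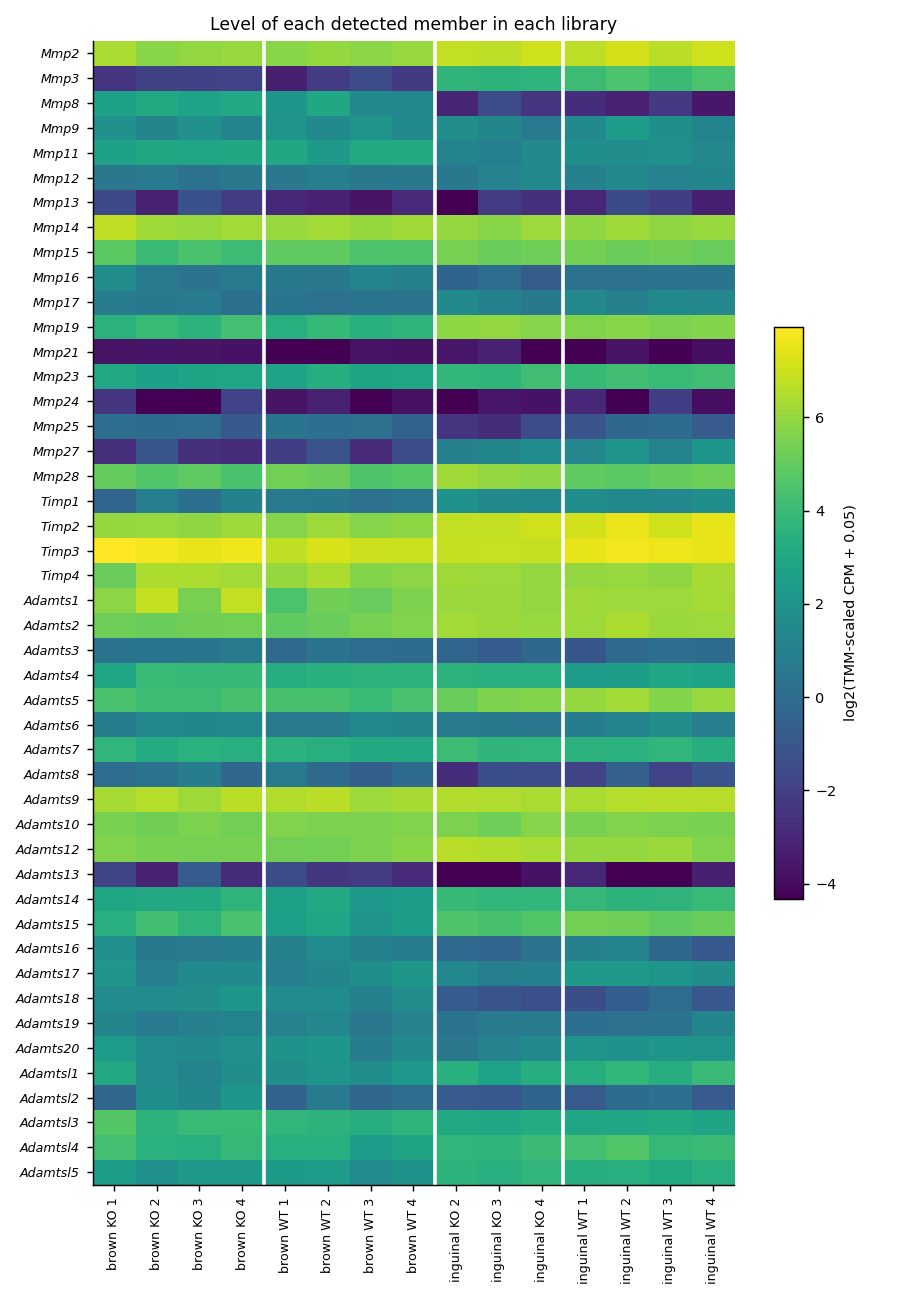
Level of the 46 detected members in each of the 15 libraries, as log2 of the TMM-scaled CPM plus a pseudocount of 0.05, with brown labelled knockout (KO), brown wild-type (WT), inguinal KO and inguinal WT libraries from left to right. Colour runs from dark (low) to yellow (high); Mmp3 was bright in all 7 inguinal libraries and dark in all 8 brown ones, and Mmp8 showed the opposite pattern.

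The 4 members without a count all sit in the MMP gene cluster of mouse chromosome 9. In the order Mmp13, Mmp12, Mmp1b, Mmp3, Mmp1a, Mmp10, Mmp8, Mmp27, Mmp20 and Mmp7, the cluster holds 9 of the 50 members. Promoter windows from RefSeq (build GRCm38.p6, 250 bases before to 50 after each gene's start) were present for 35 member genes in 38 windows. They were searched on both strands for a TATA box (TATAAA), an AP-1 site (TGANTCA) and a GC box (GGGCGG), none of which contains another. The AP-1 letters were found in 18.4% of the member windows, against 7.81% of 32851 windows of all genes. Each of the 7 member genes with a match lies in the chromosome 9 cluster. TATA letters were in 28.9% of member windows, against 13.6% of all windows, and GC boxes in 57.9%, against 35.7%. The 7 cluster genes with both AP-1 and TATA letters are shown because they hold the same pair of motifs at very different RNA levels: Mmp3 was abundant in inguinal fat, Mmp12 was low in every group, Mmp13 was near 0, and the other 4 had no count. The pairs were not alike in spacing, with 12 bases between the motifs in Mmp13 and 41 in Mmp12. The TATA letters began 58 bases before the gene's start in Mmp20, 7 before it in Mmp3 and after it in Mmp12. Each stretch runs 5′ to 3′ on the strand of the gene, from 5 bases before the AP-1 letters to 5 bases after the TATA box, with both motifs in capitals.
Mmp13 (chr9:7272474-7272508, forward strand): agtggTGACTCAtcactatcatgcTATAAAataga
Mmp12 (chr9:7347325-7347388, forward strand): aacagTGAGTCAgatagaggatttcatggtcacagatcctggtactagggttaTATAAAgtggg
Mmp1b (chr9:7388065-7388124, reverse strand): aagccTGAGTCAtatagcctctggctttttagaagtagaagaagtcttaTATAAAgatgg
Mmp3 (chr9:7445771-7445825, forward strand): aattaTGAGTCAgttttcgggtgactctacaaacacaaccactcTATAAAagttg
Mmp10 (chr9:7502274-7502323, forward strand): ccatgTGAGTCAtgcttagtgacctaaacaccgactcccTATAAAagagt
Mmp20 (chr9:7628131-7628183, forward strand): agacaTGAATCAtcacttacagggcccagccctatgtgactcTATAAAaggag
Mmp7 (chr9:7692022-7692074, forward strand): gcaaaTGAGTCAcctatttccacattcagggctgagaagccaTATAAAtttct

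A match of letters is a description and not a site at which a factor was shown to bind. Mmp8 has TATA letters and no AP-1 letters in its window, and Mmp27 has neither.

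Of the 2 comparisons of knockout with wild type, members passed in that of inguinal fat. Of the 41 members tested, 11 passed at an adjusted p below 0.05 (26.8%), 3 of them higher and 8 lower in knockout tissue, beside 28.6% of all 15710 genes tested (15.3% higher and 13.3% lower). The share of members called was thus near that of all genes. The median log2 change of the tested members was -0.21 and that of all genes -0.02. Knockout and wild-type libraries did not overlap for 13 of the 41 members (31.7%), against 36.9% of all genes. The 9 members not tested had too few counts, the highest library value among them being 0.303 CPM (Mmp8). The inhibitors Timp3 and Timp2 fell, the secreted MMP Mmp28 rose, Mmp3 and Mmp25 fell, and among the ADAMTS genes Adamts4 and Adamts12 rose while Adamts5, Adamts15, Adamts17 and Adamts20 fell. In bulk tissue, fewer cells of a type and less RNA per cell cannot be told apart.

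Of the 4 inhibitors, 2 were lower and none higher in inguinal knockout fat by this test. Timp3 stood at 115, 119.8 and 116 CPM in knockout libraries, against 178, 209.8, 200.3 and 182 CPM in wild-type libraries. The highest knockout value lay far below the lowest wild-type value (log2 change -0.71, SE 0.089, edgeR adjusted p = 8.69e-05). Timp2, which inhibits MMPs and also takes part in the activation of pro-MMP2 by MMP14, stood at 114, 112 and 131 CPM in knockout libraries, against 138, 189, 133 and 178 CPM in wild-type libraries. Its groups did not overlap, but the gap between them was small (log2 change -0.41, SE 0.12, edgeR adjusted p = 0.0239). The call for Timp2 was lost in 6 alternatives, 4 of which left out 1 library (knockout 2, knockout 3, wild-type 2 or wild-type 4), with adjusted p of 0.052 to 0.101. Timp4, the inhibitor known for its high expression in fat, gave 68.9 ± 5.94 CPM in knockout and 66.6 ± 9.2 CPM in wild-type tissue (SD, n = 3 and 4). The interval of its log2 change was -0.15 to 0.28 and the edgeR adjusted p was 0.725. Timp1 averaged 3.05 ± 0.632 CPM in knockout and 2.98 ± 0.403 CPM in wild-type tissue and did not pass (log2 change 0.03, SE 0.20, edgeR adjusted p = 0.93).

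Timp1 lies within an intron of the synapsin gene Syn1 and shares no exon sequence with it. Timp3 and Timp4 share exon sequence with Syn3 and Syn2 on the other strand. Reads of such shared exon sequence cannot be told apart here because the strand setting of the counting is not given. The same holds for Mmp11, Mmp12, Mmp19, Mmp24, Adamts4, Adamts7 and Adamts9, which share exon sequence with a gene on the other strand. Syn3 was not called in either tissue (inguinal log2 change -0.34, adjusted p = 0.442 in edgeR) and was far less abundant, at 1.01 ± 0.168 CPM in inguinal knockout and 1.3 ± 0.415 CPM in inguinal wild-type tissue. Syn2 rose in inguinal knockout fat (log2 change 0.97, SE 0.14, edgeR adjusted p = 0.000315). The promoter window of Timp3 (chr10:86300162-86300461, forward strand, GRCm38.p6, RefSeq) is shown because Timp3 had the smallest adjusted p for the difference of knockout effects between the tissues. It holds 2 GC boxes, in capitals, and no TATA or AP-1 letters; its 300 bases are read on the strand of the gene.
Timp3: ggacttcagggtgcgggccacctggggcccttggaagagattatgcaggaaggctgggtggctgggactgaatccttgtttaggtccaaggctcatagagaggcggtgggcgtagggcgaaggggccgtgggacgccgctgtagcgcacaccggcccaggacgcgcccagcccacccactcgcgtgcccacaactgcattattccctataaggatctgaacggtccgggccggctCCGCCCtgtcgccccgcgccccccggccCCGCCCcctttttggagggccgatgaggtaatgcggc

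Among the MMPs, 14 were tested, 1 rose and 2 fell, with a median log2 change of -0.19. Mmp28 (epilysin), a secreted MMP with a furin cleavage motif in its propeptide, stood at 73.8, 61.7 and 55.5 CPM in inguinal knockout libraries, against 30.8, 27.8, 32.8 and 38.0 CPM in wild-type libraries. Every knockout library exceeded every wild-type library by a wide margin (log2 change 0.99, SE 0.12, edgeR adjusted p = 7.53e-05). Mmp28 shares exon sequence with the predicted gene 1700020L24Rik on the other strand, which did not pass (log2 change 0.59, adjusted p = 0.144 in edgeR). Mmp3 (stromelysin), which cuts proteoglycans and activates other pro-MMPs, stood at 12.9, 12.2 and 12.7 CPM in knockout libraries, against 16.8, 22.3, 16.1 and 22.0 CPM in wild-type libraries. The groups did not overlap (log2 change -0.61, SE 0.13, edgeR adjusted p = 0.00391). In the fit of all 4 groups together the adjusted p of Mmp3 was 0.0571. Mmp25, a lipid-anchored MMP known from human leukocytes, was scarce, with 19 counts in all 3 knockout libraries and 98 in all 4 wild-type libraries. It stood at 0.138, 0.101 and 0.316 CPM in knockout libraries, against 0.415, 0.835, 0.915 and 0.52 CPM in wild-type libraries, without overlap (log2 change -1.74, SE 0.49, edgeR adjusted p = 0.0168). That call was lost when knockout library 2 (adjusted p = 0.0531) or 3 (0.0768) was left out.

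The promoter window of Mmp28 (chr11:83462991-83463290, reverse strand, GRCm38.p6, RefSeq), the member with the largest rise among those called in inguinal knockout fat, holds 3 GC boxes, in capitals on either strand, and no TATA or AP-1 letters. It is given 5′ to 3′ on the strand of the gene.
Mmp28: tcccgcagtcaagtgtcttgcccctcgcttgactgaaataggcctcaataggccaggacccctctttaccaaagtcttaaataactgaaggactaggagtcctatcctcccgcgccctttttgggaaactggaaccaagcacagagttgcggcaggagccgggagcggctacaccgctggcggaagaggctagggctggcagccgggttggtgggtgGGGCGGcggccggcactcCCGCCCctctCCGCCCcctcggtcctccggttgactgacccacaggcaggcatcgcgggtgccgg

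Mmp2 and Mmp14 were not called. The gelatinase Mmp2 averaged 117 ± 14.4 CPM in inguinal knockout and 119.7 ± 19.5 CPM in wild-type tissue (SD, n = 3 and 4), with an interval of the log2 change of -0.27 to 0.22. The membrane-type enzyme Mmp14 averaged 63.2 ± 9.05 and 65.0 ± 6.29 CPM in knockout and wild-type tissue, with an interval of -0.24 to 0.18. These intervals leave out changes as large as that of Mmp28. Mmp19, an MMP of wide tissue distribution, gave a log2 change of 0.19, adjusted p = 0.137 (edgeR). Mmp16, a membrane-type MMP, had knockout libraries at 0.726, 1.04 and 0.554 CPM, all below the wild-type libraries at 1.17, 1.15, 1.26 and 1.27 CPM, and did not pass (log2 change -0.65, SE 0.30, edgeR adjusted p = 0.12). The remaining tested MMPs, Mmp9, Mmp11, Mmp12, Mmp15, Mmp17, Mmp23 and Mmp27, did not pass either.

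Of the 18 ADAMTS genes tested in inguinal fat, 2 rose and 4 fell. The aggrecanases moved in opposite directions. Adamts4 stood at 11.7, 10.5 and 10.5 CPM in knockout libraries, against 5.22, 5.76, 7.55 and 6.76 CPM in wild-type libraries, with no overlap (log2 change 0.80, SE 0.14, edgeR adjusted p = 0.0012). Adamts5 stood at 35.0, 47.8 and 51.4 CPM in knockout libraries, against 63.1, 76.3, 51.2 and 65.7 CPM in wild-type libraries. The highest knockout value barely exceeded the lowest wild-type one (log2 change -0.51, SE 0.14, edgeR adjusted p = 0.0178), and the call was lost without knockout library 2 (adjusted p = 0.0598). Adamts15, another enzyme that cuts aggrecan and versican, stood at 23.3, 20.9 and 24.8 CPM in knockout libraries, against 41.9, 38.5, 30.9 and 34.8 CPM in wild-type libraries. Its groups were well apart (log2 change -0.66, SE 0.11, edgeR adjusted p = 0.000817). With all 4 groups in 1 fit its adjusted p was 0.0517.

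Adamts12, which cuts cartilage oligomeric matrix protein, stood at 98.3, 93.0 and 84.5 CPM in inguinal knockout libraries, against 64.0, 63.1, 67.9 and 49.2 CPM in wild-type libraries. Every knockout library was higher (log2 change 0.61, SE 0.11, edgeR adjusted p = 0.00112). Adamts17, a fibrillin-associated protease whose human gene is mutated in a Weill-Marchesani-like syndrome, stood at 2.59, 1.85 and 2.06 CPM in knockout libraries, against 4.72, 4.92, 4.23 and 3.23 CPM in wild-type libraries, again with no overlap (log2 change -0.96, SE 0.21, edgeR adjusted p = 0.00346). Adamts20, a versican-cleaving enzyme known from the mouse belted coat mutation, stood at 1.42, 2.08 and 2.85 CPM in knockout libraries, against 4.02, 3.95, 4.46 and 4.02 CPM in wild-type libraries. The knockout libraries were more scattered than the wild-type ones and all lay below them (log2 change -0.93, SE 0.21, edgeR adjusted p = 0.00543). With all 4 groups in 1 fit its adjusted p was 0.0523. The procollagen propeptidase Adamts2 averaged 70.0 ± 4.11 CPM in knockout and 73.3 ± 8.08 CPM in wild-type tissue (SD, n = 3 and 4; log2 change -0.05, SE 0.097, edgeR adjusted p = 0.726). Its relatives Adamts3 and Adamts14 did not pass, nor did Adamts1, Adamts6, Adamts7, Adamts8, Adamts10, Adamts16, Adamts18 and Adamts19. Adamts9, a versican-cleaving enzyme, averaged 87.7 ± 4.32 and 93.3 ± 5.87 CPM in knockout and wild-type tissue, with an interval of the log2 change of -0.25 to 0.09. Of the ADAMTS-like genes, 5 were tested and 0 were called by edgeR, DESeq2 or limma-voom, with 2 at an unadjusted p below 0.05. The smallest adjusted p was 0.0891, for Adamtsl4 (log2 change -0.40). In edgeR, Adamtsl4 was called lower with no filter on low counts and without wild-type library 3, and Adamtsl1 with the replicate block.

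**Figure D2:**
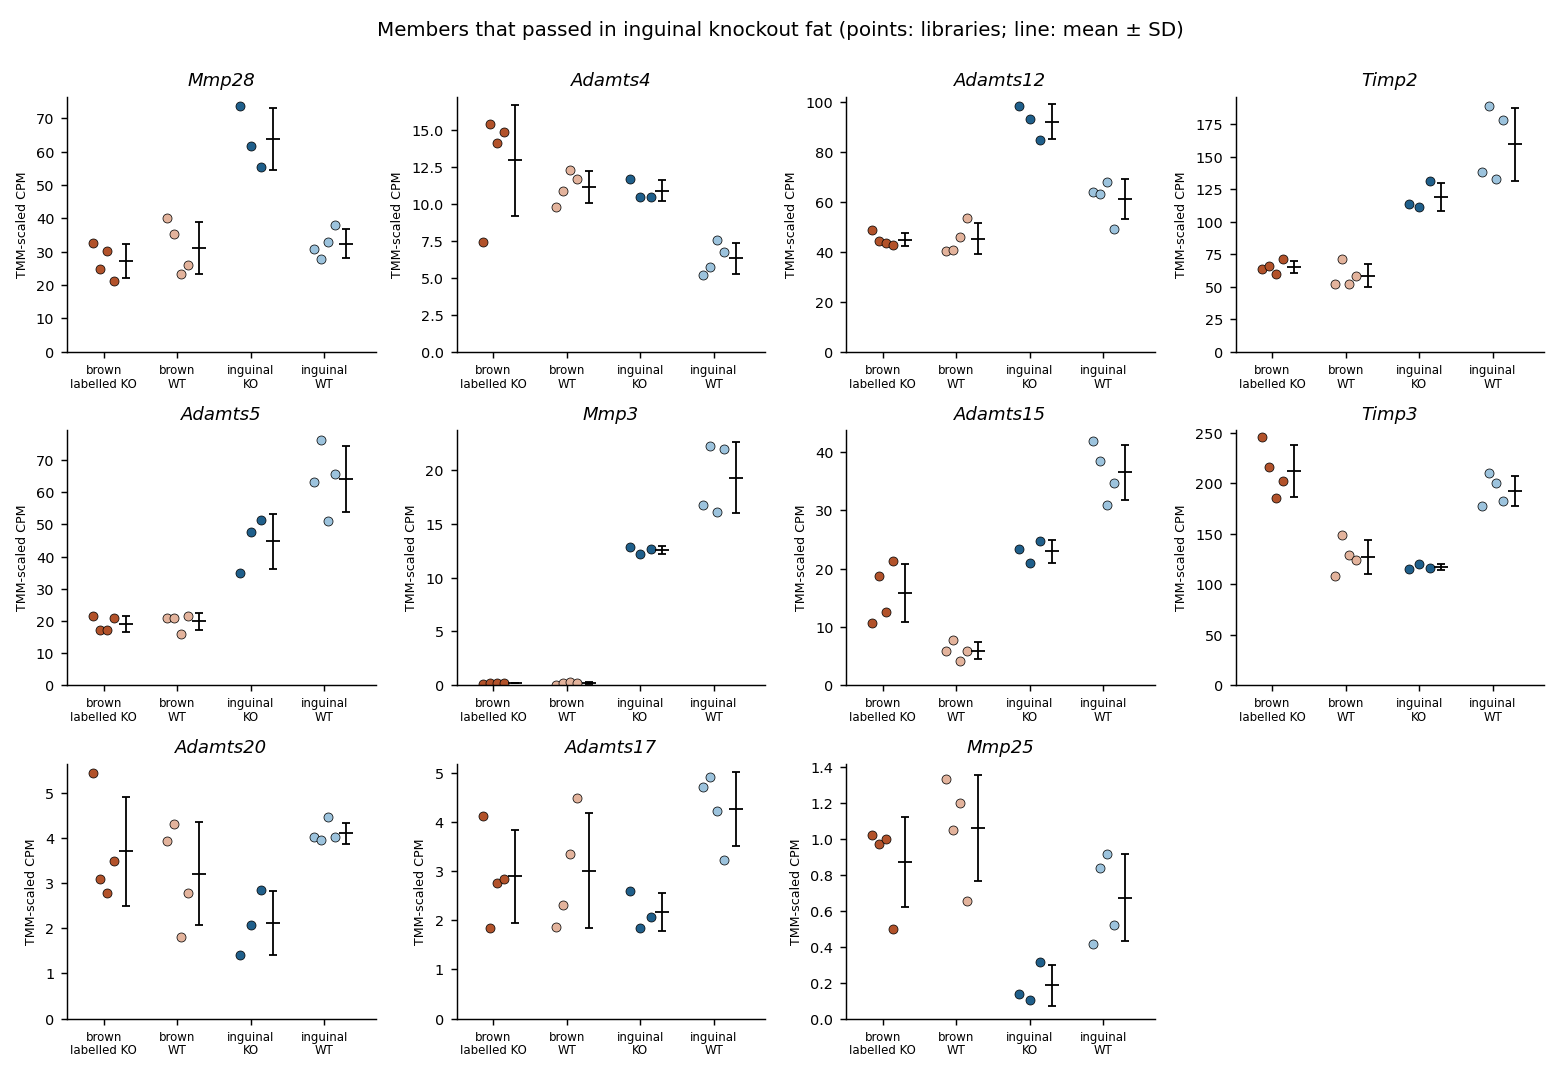
TMM-scaled CPM of the 11 members that passed in inguinal fat, ordered by log2 change, with 1 point per library and the mean ± SD, for brown labelled KO, brown WT, inguinal KO and inguinal WT tissue from left to right. Mmp28, Adamts4 and Adamts12 were higher in inguinal KO libraries and the other 8 lower, while Timp3 and Adamts15 lay higher in brown labelled KO than in brown WT libraries.

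Markers of other cells also differed between the inguinal groups. The summed level of 10 skeletal muscle markers was 101 to 113 CPM in knockout libraries, against 212 to 470.5 CPM in wild-type libraries, with 9 of 10 markers lower. Mast cell markers summed to 103 to 119 CPM in knockout libraries, against 54.2 to 62.6 CPM in wild-type libraries, with 4 of 6 higher. Brown and beige adipocyte markers summed to 2930 to 3710 CPM in knockout libraries, against 1447 to 2197 CPM in wild-type libraries, with 5 of 7 higher. Progenitor and fibroblast markers overlapped (2592 to 2979 CPM in knockout and 2451 to 3750 CPM in wild-type libraries), with 3 of 9 lower. Endothelial markers summed to 788 to 865 CPM in knockout libraries, against 884 to 1085 CPM in wild-type libraries, with 3 of 7 lower, and pericyte and smooth muscle markers to 652 to 736 CPM in knockout libraries, against 703 to 954 CPM in wild-type libraries, also with 3 of 7 lower. Schwann cell and nerve markers summed to 385 to 500.0 CPM in knockout libraries, against 598 to 692 CPM in wild-type libraries, with 1 of 6 higher and 3 lower. Neutrophil markers were scarce (5.06 to 5.77 CPM in knockout and 2.51 to 3.7 CPM in wild-type libraries), with Ly6g at 0 in every wild-type library and 2 of the 4 tested higher. B cell markers (5.05 to 13.6 CPM in knockout and 11.8 to 21.5 CPM in wild-type libraries) had 2 of 7 lower. Macrophage markers (358 to 450.0 CPM in knockout and 369.9 to 499 CPM in wild-type libraries) had 1 of 8 lower. T cell markers (10.3 to 20.9 CPM in knockout and 10.2 to 17.0 CPM in wild-type libraries) had 0 of 7 called by edgeR, DESeq2 or limma-voom and 0 at an unadjusted p below 0.05. The part of these cells in the changes of the members was not tested.

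In newborn brown fat no member passed with edgeR. Of 40 tested, 0 were called, beside 0.260% of all 15796 genes (0.184% higher and 0.0760% lower in labelled knockout tissue). At an unadjusted p below 0.05 there were 7 of the 40 members and 2930 of all genes. The median log2 change of the members was 0.14 and that of all genes 0.01. Labelled knockout and wild-type libraries did not overlap for 3 of the 40 members (7.50%), against 9.74% of all genes, and these 3 were Timp3, Adamts15 and Adamts3, each with the higher values in labelled knockout tissue. The 10 members not tested included Mmp3 and Mmp27, and the highest library value among the 10 was 0.541 CPM (Adamts13). Member counts depended on the method: DESeq2 called 4, all higher (Timp3, Adamts1, Adamts15 and Adamtsl2), and limma-voom with quality weights called 8, namely those 4 with Adamts14, Mmp8 and Adamtsl4 higher and Mmp15 lower. Those methods also called 6.53% and 19.8% of all genes. Without labelled knockout library 1, edgeR called 5 members (Timp3, Adamts15, Adamts4 and Adamtsl2 higher, Mmp15 lower) and 18.1% of all genes.

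The 4 brown members of smallest p are given in full. Timp3 stood at 246, 216, 185 and 202 CPM in labelled knockout libraries, against 108, 148, 129 and 124 CPM in wild-type libraries. The groups were clearly apart (log2 change 0.73, SE 0.13, edgeR adjusted p = 0.0571). Without labelled knockout library 1 its adjusted p was 0.0052. Adamts15 stood at 10.7, 18.7, 12.6 and 21.3 CPM in labelled knockout libraries, against 5.94, 7.68, 4.21 and 5.83 CPM in wild-type libraries, again without overlap (log2 change 1.41, SE 0.26, edgeR adjusted p = 0.066). Without library 1 the adjusted p of Adamts15 was 0.00245. Adamts1, an inducible versican- and aggrecan-cleaving enzyme, stood at 56.9, 115, 42.6 and 111 CPM in labelled knockout libraries, against 22.0, 38.6, 33.5 and 47.3 CPM in wild-type libraries. Libraries 2 and 4 of the labelled knockout were high and library 3 lay within the wild-type range (log2 change 1.19, SE 0.35, edgeR adjusted p = 0.14). Adamtsl2, a microfibril-associated protein without protease activity, stood at 0.771, 3.4, 2.43 and 4.28 CPM in labelled knockout libraries, against 0.705, 1.53, 0.774 and 1.0 CPM in wild-type libraries. Library 1 lay within the wild-type range and the other 3 above it (log2 change 1.44, SE 0.47, edgeR adjusted p = 0.163; adjusted p = 0.00558 without library 1).

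The remaining inhibitors gave no call in brown tissue. Timp4 stood at 35.5, 86.1, 86.2 and 75.5 CPM in labelled knockout libraries, against 64.7, 87.4, 50.6 and 55.6 CPM in wild-type libraries; library 1 of the labelled knockout was the lowest of the 8. Timp2 averaged 65.2 ± 4.77 and 58.3 ± 8.88 CPM in labelled knockout and wild-type tissue (SD, n = 4 each; log2 change 0.15, SE 0.12, edgeR adjusted p = 0.51). The log2 change was positive for all 4 inhibitors and all 5 ADAMTS-like genes, for 12 of the 18 ADAMTS genes and for 6 of the 13 MMPs tested, with 0 of them called by edgeR. Of 89 marker genes tested in brown tissue, edgeR called 0, with 14 at an unadjusted p below 0.05, DESeq2 3 and limma-voom 19. The epithelial markers, however, summed to 107.9 CPM in labelled knockout library 4, against 4.79 to 11.9 CPM in the other 7 brown libraries. By edgeR 0 members were called with or without library 4, so the count of calls cannot show its part in the member values.

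**Figure D3:**
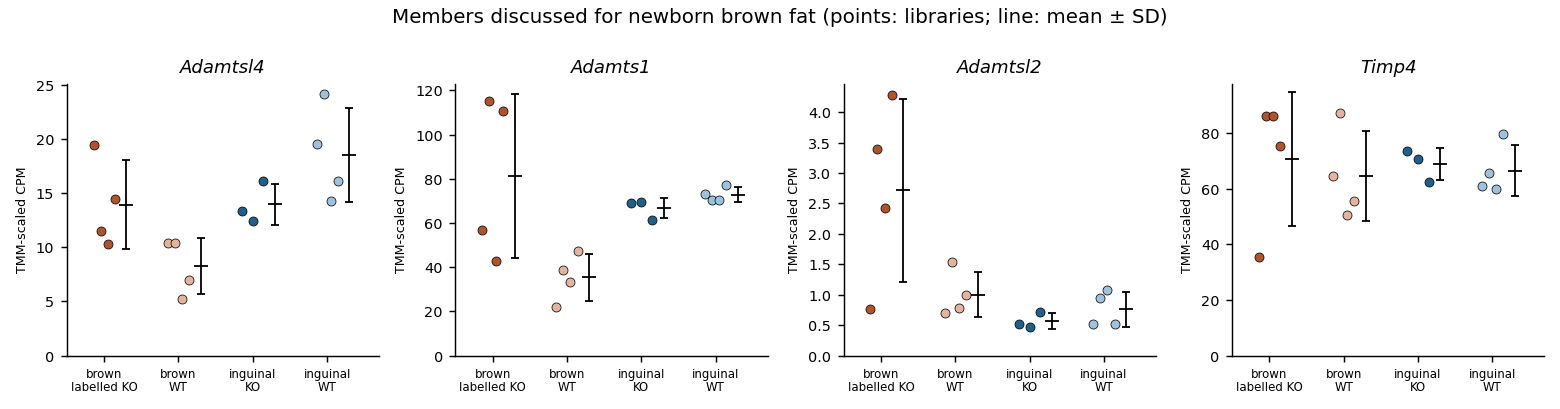
TMM-scaled CPM of Adamtsl4, Adamts1, Adamtsl2 and Timp4, with 1 point per library and the mean ± SD, for brown labelled KO, brown WT, inguinal KO and inguinal WT tissue from left to right. Brown labelled KO libraries were widely scattered for all 4 genes, with Timp4 at 35.5 CPM in 1 library and at 75.5 to 86.2 CPM in the other 3.

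The difference between the knockout effects was tested directly with all 4 groups. It passed for 5 of 43 members tested (11.6%), beside 9.0% of all 16858 genes (4.80% with a higher and 4.20% with a lower change in inguinal fat). The median difference (inguinal minus brown log2 change) was -0.42 over the members and -0.07 over all genes. For Timp3 the log2 change was -0.71 in inguinal and 0.73 in brown tissue (difference -1.46, SE 0.16, edgeR adjusted p = 9.53e-05). For Adamts15 it was -0.66 in inguinal and 1.41 in brown tissue (difference -2.09, SE 0.30, edgeR adjusted p = 0.00104). Both had lower inguinal knockout and higher brown labelled knockout values than their wild types, with no overlap in either tissue. Mmp28 went the other way: its inguinal log2 change was 0.99 and its brown one -0.21 (difference 1.18, SE 0.25, edgeR adjusted p = 0.0101). In brown tissue Mmp28 stood at 32.5, 24.7, 30.1 and 21.3 CPM in labelled knockout libraries, against 40.0, 35.3, 23.4 and 25.9 CPM in wild-type libraries, and the groups overlapped. These 3 differences were called in all 20 alternatives run.

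Adamts12 and Adamtsl4 passed less firmly. Adamts12 had brown values of 48.5, 44.3, 43.4 and 42.7 CPM in labelled knockout libraries, against 40.3, 40.6, 45.9 and 53.6 CPM in wild-type libraries, which overlap (difference 0.60, SE 0.16, edgeR adjusted p = 0.0315). Adamtsl4, whose human gene is mutated in displacement of the lens, stood at 19.5, 11.5, 10.3 and 14.5 CPM in brown labelled knockout libraries, against 10.4, 10.4, 5.24 and 7.0 CPM in brown wild-type libraries, and at 13.4, 12.4 and 16.1 CPM in inguinal knockout libraries, against 19.6, 24.2, 14.3 and 16.1 CPM in inguinal wild-type libraries. The groups overlapped in both tissues (difference -1.16, SE 0.35, edgeR adjusted p = 0.0499). The call was lost in 10 of 20 alternatives for Adamts12 (adjusted p of 0.0511 to 0.0823) and in 12 of 20 for Adamtsl4 (0.0504 to 0.132), in most of them by leaving out 1 library. Without brown labelled knockout library 1, 9 members passed, and 3 passed without brown labelled knockout 2 or 4, brown wild-type 3, inguinal knockout 2 or 3, or inguinal wild-type 2 or 4. Adamts1 (difference -1.33, adjusted p = 0.0582), Timp2 (-0.59, adjusted p = 0.061) and Adamts20 (-1.16, adjusted p = 0.0891) did not pass in edgeR.

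**Figure D4:**
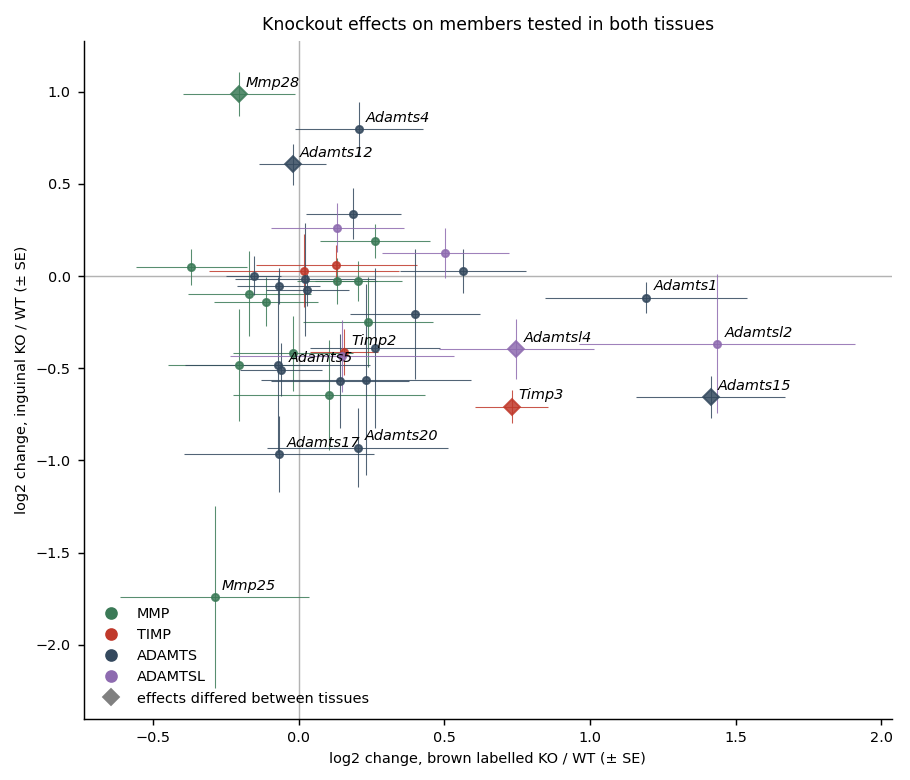
Log2 change of labelled knockout over wild type in brown fat (horizontal axis) and in inguinal fat (vertical axis) for each member tested in both, with bars of 1 SE, coloured by family; diamonds mark the 5 members whose effects differed between the tissues. Timp3 and Adamts15 lie at the lower right (positive in brown, negative in inguinal fat) and Mmp28 at the upper left.

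The wild-type tissues differed in most members, as they did in most genes. Of 42 members tested, 27 passed (64.3%), beside 61.4% of all 15979 genes (30.7% in each direction). By direction, 7 were higher in brown tissue at day 0.5 and 20 higher in inguinal tissue at day 24, while all genes were evenly split. The median log2 ratio (brown over inguinal) was -0.39 over the members and 0.01 over all genes. Of the inhibitors, Timp1, Timp2 and Timp3 were lower in brown tissue, as was the overlapping Syn3 (log2 ratio -0.87, adjusted p = 0.0157 in edgeR), and Timp4 was not called (log2 ratio -0.05, SE 0.17, edgeR adjusted p = 0.834). Of the MMPs, 3 were higher and 8 lower in brown tissue, of the ADAMTS genes 3 and 6, and of the ADAMTS-like genes 1 and 3.

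Mmp3 showed the widest gap of the members called, at 0.0542, 0.18, 0.315 and 0.163 CPM in brown wild-type libraries, against 16.8, 22.3, 16.1 and 22.0 CPM in inguinal wild-type libraries (log2 ratio -6.75, SE 0.28, edgeR adjusted p = 5.6e-09). Its cluster neighbour Mmp27 stood at 0.19, 0.39, 0.086 and 0.327 CPM in brown libraries, against 2.52, 4.18, 2.17 and 4.41 CPM in inguinal libraries (log2 ratio -3.73, SE 0.38, edgeR adjusted p = 6.23e-06). Mmp8, the neutrophil collagenase from the same cluster, had the reverse order, at 4.39, 8.13, 2.84 and 2.52 CPM in brown libraries, against 0.104, 0.0576, 0.153 and 0.0359 CPM in inguinal libraries (log2 ratio 5.77, SE 0.55, edgeR adjusted p = 7.72e-06). Genes a short way apart on chromosome 9 thus had opposite tissue patterns. Neutrophil markers summed to 55.7 to 77.6 CPM in brown and 2.51 to 3.7 CPM in inguinal wild-type libraries, with all 7 tested higher in brown tissue, and their part in the Mmp8 level was not tested.

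Adamts18 stood at 2.93, 3.12, 2.03 and 3.22 CPM in brown wild-type libraries, against 0.337, 0.576, 0.992 and 0.449 CPM in inguinal ones (log2 ratio 2.32, SE 0.30, edgeR adjusted p = 3.87e-05). Adamts8 was lower in level, at 1.6, 0.9, 0.602 and 0.933 CPM in brown libraries, against 0.234, 0.634, 0.229 and 0.413 CPM in inguinal libraries (log2 ratio 1.39, SE 0.40, edgeR adjusted p = 0.00907); the lowest brown value lay below the highest inguinal one. Mmp11 (stromelysin-like), a furin-activated MMP, stood at 8.19, 4.86, 8.57 and 8.93 CPM in brown libraries, against 3.45, 3.14, 3.51 and 2.53 CPM in inguinal libraries, with no overlap (log2 ratio 1.28, SE 0.20, edgeR adjusted p = 0.000151). Chchd10, which shares exon sequence with Mmp11, was also higher in brown tissue (log2 ratio 0.78, adjusted p = 1.87e-05 in edgeR), and its part in the Mmp11 reads was not tested. Adamts4 averaged 11.2 ± 1.09 CPM in brown and 6.32 ± 1.04 CPM in inguinal tissue (SD, n = 4 each; log2 ratio 0.82, SE 0.14, edgeR adjusted p = 0.000295). Adamtsl3 averaged 12.0 ± 1.52 CPM in brown and 7.8 ± 0.784 CPM in inguinal tissue (log2 ratio 0.62, SE 0.13, edgeR adjusted p = 0.00104). Mmp16 was close to the threshold (log2 ratio 0.56, SE 0.21, edgeR adjusted p = 0.0352), and its call was lost in 9 of 14 alternatives (adjusted p of 0.0556 to 0.125).

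On the inguinal side, Adamts15 stood at 5.94, 7.68, 4.21 and 5.83 CPM in brown wild-type libraries, against 41.9, 38.5, 30.9 and 34.8 CPM in inguinal wild-type libraries (log2 ratio -2.63, SE 0.16, edgeR adjusted p = 1.92e-07). Adamts5 stood at 21.0, 20.9, 15.8 and 21.6 CPM in brown libraries, against 63.1, 76.3, 51.2 and 65.7 CPM in inguinal libraries (log2 ratio -1.69, SE 0.13, edgeR adjusted p = 1.02e-06). Both aggrecan-cleaving enzymes were thus lower in brown tissue in all 4 libraries. Mmp19 stood at 10.2, 14.9, 11.1 and 12.6 CPM in brown libraries, against 49.7, 54.2, 45.8 and 51.5 CPM in inguinal libraries (log2 ratio -2.04, SE 0.11, edgeR adjusted p = 5.03e-08). Timp2 averaged 58.3 ± 8.88 CPM in brown and 159.5 ± 28.2 CPM in inguinal tissue (log2 ratio -1.45, SE 0.14, edgeR adjusted p = 9.02e-06), Adamtsl1 3.78 ± 0.638 and 12.5 ± 2.98 CPM (-1.72, SE 0.19, edgeR adjusted p = 9.28e-06), and Adamtsl5 4.28 ± 1.09 and 9.93 ± 0.976 CPM (-1.22, SE 0.18, edgeR adjusted p = 0.000102). Among the abundant members, Mmp2 was lower in brown tissue (log2 ratio -0.99, adjusted p = 1.85e-05 in edgeR), whereas Mmp14, at 69.5 ± 5.08 CPM in brown and 65.0 ± 6.29 CPM in inguinal tissue, was not called (interval of the log2 ratio -0.06 to 0.26).

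**Figure D5:**
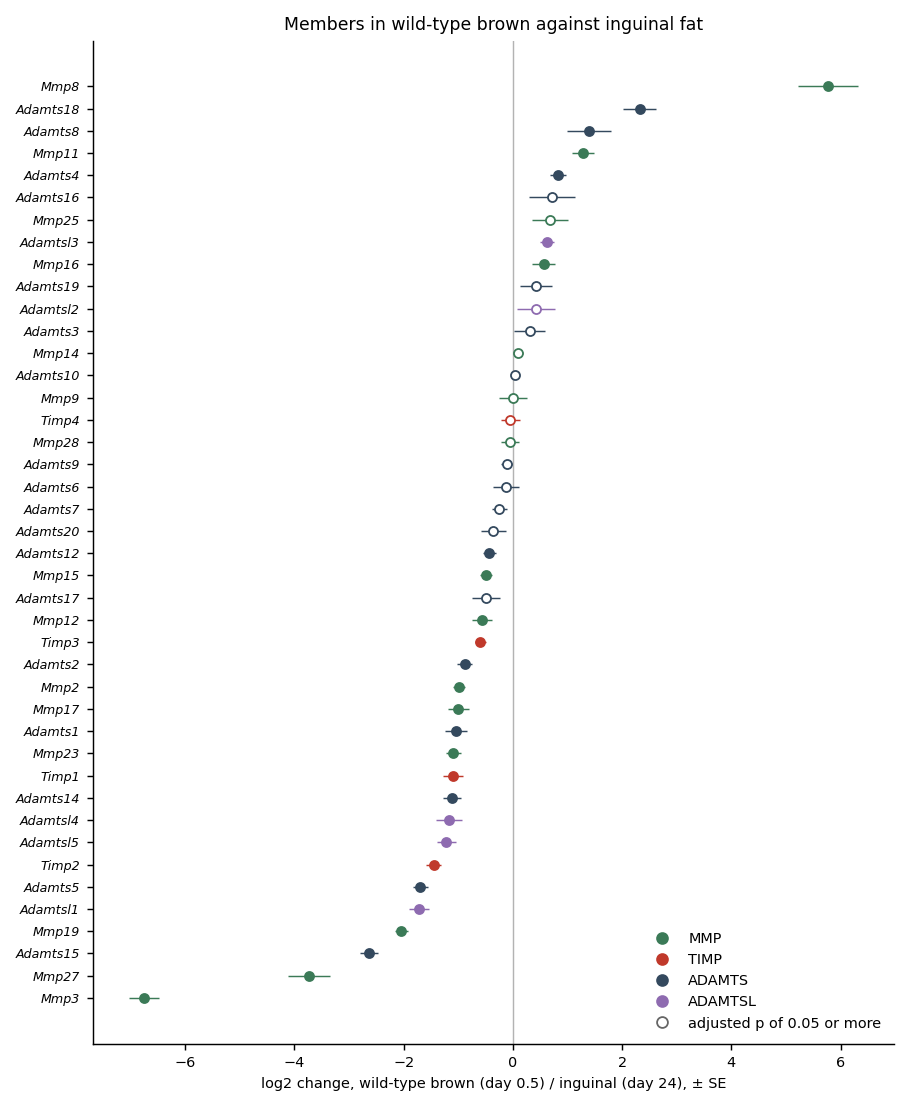
Log2 ratio of wild-type brown (day 0.5) over wild-type inguinal (day 24) level for the 42 members tested, with bars of 1 SE, coloured by family; filled points passed an adjusted p of 0.05 and open points did not. Filled points reach from Mmp8 at 5.77 to Mmp3 at -6.75, with 7 on the brown side and 20 on the inguinal side.

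Genes that activate, inhibit, clear or serve as substrates of these proteases were followed in 7 further lists. In brown tissue edgeR called 0 of their 76 genes tested, with 18 at an unadjusted p below 0.05, DESeq2 9 and limma-voom 18. In inguinal knockout fat, Plau, the urokinase-type activator of plasminogen, whose product plasmin activates several pro-MMPs, fell (log2 change -0.58, SE 0.13, edgeR adjusted p = 0.00468). The counts of calls in these lists stand beside 28.6% of all genes called in inguinal fat (15.3% higher and 13.3% lower). Among other regulators, 6 were higher and 2 lower of 12 tested. Spock2, a matrix proteoglycan that modulates MMP activation, averaged 11.2 ± 2.11 CPM in knockout and 4.05 ± 0.458 CPM in wild-type tissue (log2 change 1.47, SE 0.16, edgeR adjusted p = 2.73e-05). Furin, the convertase that activates many ADAMTS enzymes and some MMPs, averaged 135 ± 23.8 and 72.6 ± 9.16 CPM in knockout and wild-type tissue (log2 change 0.91, SE 0.13, edgeR adjusted p = 0.000179). Reck, a membrane-anchored MMP inhibitor, did not pass (log2 change -0.05, adjusted p = 0.839 in edgeR).

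Procollagen processing and cross-linking genes had 0 higher and 4 lower of 15 tested in inguinal knockout fat, a share near that of all genes. Plod2, a lysyl hydroxylase needed for stable collagen cross-links, averaged 16.9 ± 3.21 CPM in knockout and 45.3 ± 2.94 CPM in wild-type tissue (log2 change -1.41, SE 0.12, edgeR adjusted p = 3.76e-06), and its effect differed from that in brown tissue (difference -1.54, SE 0.27, edgeR adjusted p = 0.0031). Proteoglycan substrates of ADAMTS enzymes had 1 call of 9 tested, with Lum (lumican) lower (log2 change -0.56, adjusted p = 0.0292 in edgeR). Microfibril and elastic fibre genes had 3 higher, Eln, Mfap4 and Fbn2, and 1 lower, Ltbp1, of 17 tested. Membrane ADAM sheddases had 2 higher, Adam12 and Adam9, and 2 lower, Adam23 and Adam10, of 10 tested. The lysosomal and other proteases had 0 higher and 3 lower of 9 tested, among them the collagen-degrading cathepsin Ctsk, at 20.0 ± 2.96 CPM in knockout and 31.9 ± 4.38 CPM in wild-type tissue (log2 change -0.66, SE 0.13, edgeR adjusted p = 0.00163).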

How the data were processed

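Polyadenylated RNA of 15 libraries was measured, prepared with the TruSeq stranded mRNA kit per the labels' protocols. Per the submitters' processing notes, the mm9 build was used along with featureCounts, Subread, TopHat2 2.1.0 and edgeR; what each did, which annotation was counted and whether strand was used are not given. The deposited values are raw counts per Ensembl gene, not normalized by the authors. Of 37991 identifiers, 32919 matched a symbol in GENCODE, whose build differs from mm9, so no coordinates are given for counted genes; promoter sequences and their coordinates come from RefSeq, build GRCm38.p6.

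Fits used the libraries of the 2 groups compared, or all 4 groups for the difference between knockout effects, and all genes kept by filterByExpr (minimum count 10). The test was edgeR 4.0.16 in R 4.3.3, with TMM scaling, the robust quasi-likelihood F-test and Benjamini-Hochberg adjustment over all genes tested, at a threshold of 0.05. Levels are TMM-scaled CPM unless stated. The SE was taken as the size of the log2 change over the root of its F statistic, and intervals use 1.96 SE, nominally 95%. With so few libraries these intervals are narrower than the F-test implies. In inguinal fat that of Mmp19 was 0.01 to 0.37, while its unadjusted edgeR p was 0.0563. The fitting steps were tested on simulated data. Of 1.5-fold changes, 14.9% were recovered in brown tissue, 59.7% in inguinal tissue, 1.49% for the difference and 41.8% between wild-type tissues. The false share of the calls was 4.31%, 6.63%, 6.85% and 9.09% in that order. Changes were put into 67 genes at 1.5-fold, 67 at 2-fold and 66 at 4-fold in each simulation. That is a far smaller share of genes than was called in inguinal fat or between wild-type tissues. Recovered and false shares depend on how many genes change, so these rates need not carry over to the data. Alternatives were DESeq2 1.42.0 size factors and Wald test, limma 3.58.1 voom with quality weights, no filter on low counts, a replicate block, all 4 groups in 1 fit, and each library left out in turn.

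The members and the gene lists were chosen with earlier results of these data known. Values in every library are given for members past the threshold in a knockout comparison or in the difference, for the 4 of smallest p where fewer passed, and for the members of largest change toward each wild-type tissue with at least 1 CPM in the higher group (up to 8 a tissue; for 6 of them as mean and SD or ratio only, to limit length). Other named members and list genes beyond the 3 of smallest p were picked with their values in view. No 2 libraries of a group agreed within sampling noise (lowest chi-square per degree of freedom 14.7). Protein sequences were not used here, and some list genes and overlapping genes are not reported here.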

Additional observations from a re-analysis of the deposited data

Results flagged for a closer look

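The knockout effect differed between the tissues for 5 members by the test of the difference itself. The differences (inguinal minus brown log2 change) were -1.46 for Timp3, -2.09 for Adamts15, 1.18 for Mmp28, 0.60 for Adamts12 and -1.16 for Adamtsl4 (edgeR adjusted p = 9.53e-05, 0.00104, 0.0101, 0.0315 and 0.0499 in that order). Tissue and age changed together, so which of them goes with the difference cannot be told apart.

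A single library stood far from the others of its group in 5 of 42 checks over 14 members, where chance gives about 1 in 20. Only groups of 4 libraries were checked, so inguinal knockout tissue, with 3 libraries, was not. Mmp3 was lowest in 1 brown labelled knockout library at 0.138 CPM, and Mmp25 at 0.495 CPM in another. Adamts4 was lowest at 7.4 CPM in brown labelled knockout library 1. Adamts5 was lowest at 15.8 CPM in brown wild-type library 3. Adamts20 was highest at 4.46 CPM in 1 inguinal wild-type library.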

How the results depend on the processing

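In brown tissue, where edgeR called 0 members, no filter on low counts gave 2, the DESeq2 Wald test 4, limma-voom 8 and the fit of all 4 groups 4; leaving out 1 library gave 0 to 5, with 5 only without labelled knockout 1. In inguinal tissue 11 members were called, 7 in the fit of all 4 groups and 8 to 12 with 1 library left out. The difference between effects had 5 members, 9 with DESeq2, 10 with limma-voom and 3 to 9 with 1 library left out. The wild-type tissue count of 27 ranged from 25 to 28 with 1 library left out. The cause of these shifts was not tested. No value of a named member changed direction. Over single members, 181 results of the other alternatives kept their side of the threshold, 14 gained and 10 lost it; with 1 library left out, 268 kept, 3 gained and 33 lost it. Same-numbered libraries of knockout and wild type deviated together only weakly in brown tissue (correlations 0.111, -0.0701, 0.199 and 0.147) and inguinal tissue (-0.126, -0.0603 and 0.0989). These values do not settle whether the numbers pair the samples. Summed skeletal muscle markers in brown labelled knockout libraries 1 to 4 were 4499, 3345, 2546 and 3003 CPM. In brown wild-type libraries 1 to 4 the sums were 4498, 3699, 2614 and 3022 CPM. With the replicate block, 0 members were called in brown tissue, 12 in inguinal tissue, 5 for the difference and 27 between wild-type tissues. With 3 or 4 libraries a group, members near 1 CPM or below, such as Mmp25, rest on few counts.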
